A study of Mus musculus with 4 samples.

Results

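The 9 genes described here encode the core of the hemidesmosome and of the contact between keratinocytes and the basement membrane: Col17a1, Itga6, Itgb4, Dst, Plec, Lama3, Lamb3, Itga3 and Itgb1. They were taken as a named list and all 9 of 9 were found, by symbol and gene identifier, among the 32285 genes of each of the 4 count matrices. Their levels were followed across keratinocyte compartments and other cell types, with the ablated library set against the control library of the same time point. The genes were chosen by name, with earlier results of these data known.

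Adult mouse epidermis was profiled by droplet single-cell RNA sequencing to ask what loss of ΔNp63 does to adult epidermal cells; ΔNp63 is the isoform of the transcription factor p63 that lacks the long amino-terminal activation domain. Control mice were DNp63fl/fl and experimental mice were DNp63fl/fl;K14-CreT2, in which a tamoxifen-dependent Cre recombinase is driven by the keratin 14 promoter, active in basal keratinocytes. Both genotypes were given tamoxifen by gavage at 200 mg/kg daily for 5 days, so the controls carry the floxed alleles and the drug but no Cre, and the experimental libraries, called ablated below, differ from them in Cre and in ΔNp63 together. Cells were taken 1 day or 1 week after ablation, giving 4 groups of 1 library each. Animals of either sex were used at ages from 2 to 17 months, and 0.25% trypsin at 4 or 37 °C released the epidermis. Which age, sex or digestion went into which library is not given in the sources used here, nor is the number of animals pooled in one. The 1-day libraries come from a 3′ kit (version 3.1) and the 1-week libraries from a 5′ kit (version 1.1), so levels were not compared between time points. With 1 library a group there is no replicate check, no difference below was tested, and intervals cover counting error only.

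Hemidesmosomes rivet the basal surface of keratinocytes to the basement membrane. The integrin α6β4 and collagen XVII span the membrane, the plakins BPAG1 and plectin tie them to keratin filaments inside the cell, and laminin-332 receives them outside. Integrin α3β1 binds the same laminin at focal contacts that link to actin. In epidermis these proteins are typical of the basal layer and the outer layer of the hair follicle, and cells that move up into the spinous and granular layers leave the contact; inherited loss of most of them gives forms of epidermolysis bullosa.

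On mouse build GRCm38 the genes lie on 7 chromosomes. The transmembrane components are Col17a1 (chr19:47646344-47692094, minus strand), Itga6 (chr2:71745616-71858416, plus) and Itgb4 (chr11:115974709-116008412, plus). The plakins are Dst (chr1:33908225-34308661, plus) and Plec (chr15:76170974-76232574, minus). Of the laminin chains, Lamb3 lies at chr1:193207699-193343878 (plus) and the position of Lama3 is given with its values, and the α3β1 chains are Itga3 (chr11:95044474-95076801, minus) and Itgb1 (chr8:128685654-128733200, plus). RefSeq start-site windows (GRCm38.p6) were found for 5 of the 9 genes, in 8 windows. The sequences below lie just upstream of annotated starts of these 5 genes, Col17a1, Dst, Lamb3, Itga3 and Itgb1. They are shown because only these genes had such windows. The genes differ in how many of 9 keratinocyte classes had a log2 ratio below 0 at 1 day: 9 for Col17a1, Dst and Itga3, 7 for Lamb3 and 3 for Itgb1. Lower by 1.5-fold were 7 classes for Dst, 5 for Col17a1, 3 for Lamb3, 1 for Itga3 and 0 for Itgb1. No link between sequence and ratio was tested. They read 5′ to 3′ on the gene's strand and leave out annotated exons. Capitals mark GC boxes (GGGCGG) and TATA boxes (TATAAA), searched on both strands.
Col17a1, chr19:47692095-47692292, minus strand, upstream of the gene: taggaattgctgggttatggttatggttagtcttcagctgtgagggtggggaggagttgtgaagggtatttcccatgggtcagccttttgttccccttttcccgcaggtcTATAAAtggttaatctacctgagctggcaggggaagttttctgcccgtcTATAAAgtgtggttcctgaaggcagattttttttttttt
Dst, chr1:34011345-34011594, plus strand, inside the gene but in no exon: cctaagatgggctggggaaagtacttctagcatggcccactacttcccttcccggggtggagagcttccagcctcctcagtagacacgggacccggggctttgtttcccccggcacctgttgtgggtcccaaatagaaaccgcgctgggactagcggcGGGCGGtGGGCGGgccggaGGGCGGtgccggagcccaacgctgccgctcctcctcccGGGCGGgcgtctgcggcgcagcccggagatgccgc
Dst, chr1:34160010-34160259, plus strand, inside the gene but in no exon: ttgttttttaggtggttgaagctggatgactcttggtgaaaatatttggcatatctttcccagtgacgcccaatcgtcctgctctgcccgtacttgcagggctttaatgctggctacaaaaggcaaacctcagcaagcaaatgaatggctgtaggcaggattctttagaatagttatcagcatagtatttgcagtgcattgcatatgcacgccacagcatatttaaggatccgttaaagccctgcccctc
Lamb3, chr1:193301744-193301992, plus strand, inside the gene but in no exon: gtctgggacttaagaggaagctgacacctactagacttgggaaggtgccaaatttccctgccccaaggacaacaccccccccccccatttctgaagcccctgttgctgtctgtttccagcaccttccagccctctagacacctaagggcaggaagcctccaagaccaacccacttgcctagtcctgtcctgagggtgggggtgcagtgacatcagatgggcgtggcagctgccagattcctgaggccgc
Itga3, chr11:95069199-95069448, minus strand, inside the gene but in no exon: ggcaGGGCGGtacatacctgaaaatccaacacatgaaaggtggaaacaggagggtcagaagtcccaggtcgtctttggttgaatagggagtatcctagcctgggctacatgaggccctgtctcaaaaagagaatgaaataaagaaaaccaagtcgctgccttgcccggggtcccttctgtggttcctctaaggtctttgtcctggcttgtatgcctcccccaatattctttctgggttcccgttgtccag
Itgb1, chr8:128685404-128685653, plus strand, upstream of the gene: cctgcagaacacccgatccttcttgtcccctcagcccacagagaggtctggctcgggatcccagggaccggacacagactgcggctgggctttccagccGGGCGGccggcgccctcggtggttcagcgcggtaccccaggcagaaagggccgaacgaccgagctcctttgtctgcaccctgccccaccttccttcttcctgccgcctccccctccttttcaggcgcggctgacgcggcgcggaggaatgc

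The Col17a1 window held 2 TATA boxes, and 12.4% of all 32851 windows of 250 bases held at least 1. The first Dst window held 4 GC boxes and the Itgb1 window 1, a motif present in 32.7% of all windows. The Itga3 window shown held 1 GC box. A further Itga3 window, which meets an exon and is not shown, held 3. The second Dst window and both Lamb3 windows, of which 1 meets exons and is not shown, held neither motif. Also searched on both strands were the AP-1 site TGANTCA, found in 6.75% of all windows, and the p53-family half-site, found in 7.13%. No window of these genes contained either. Matches describe the letters only, and which start keratinocytes use was not measured.

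The 1-day libraries held 179736563 (control) and 144323031 (ablated) UMIs and the 1-week libraries 88903603 and 68191870; a UMI marks 1 captured RNA molecule. After filtering, 20403 and 15698 keratinocytes at 1 day and 5855 and 2711 at 1 week stand behind the values, with medians of 4326, 3636, 6692 and 7091 UMIs. At 1 week 11660 and 11452 further barcodes fell in clusters of few UMIs and were set aside. The 1-day pair of libraries shared 299 barcodes and the 1-week pair 661, the latter 2.64% and 3.59% of each list. Trp63, the gene targeted, stood at 403.7 and 126.2 CPM (counts scaled to a total of 1000000 UMIs over the cells summed) in keratinocytes at 1 day and at 446.0 and 161.7 CPM at 1 week, lower in the ablated library by 1.68 and 1.46 on the log2 scale. These counts do not separate the isoforms, and a tag from either end of the transcript may lie outside the deleted part. Keratinocyte classes were rebuilt here from clusters with fixed markers, and the 9 genes, Trp63 and the related lists below were kept out of the clustering.

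In control epidermis all 9 genes were higher in basal-like than in spinous-like cells at both time points. The size of that step differed widely between genes. At 1 day it was 19.46-fold for Lamb3, 18.93-fold for Itga3, 16.43-fold for Itgb1 and 11.86-fold for Itgb4. It was 6.90-fold for Lama3, 5.27-fold for Itga6, 4.6-fold for Col17a1, 4.19-fold for Plec and 3.68-fold for Dst. At 1 week, with the other kit, Itga3 (51.25-fold) and Lamb3 (21.85-fold) again had the 2 largest steps and Plec (3.79-fold) and Dst (4.20-fold) the smallest. These steps are between classes of 1 library, and different clusters make up the spinous-like class in control and ablated libraries.

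**Figure D1:**
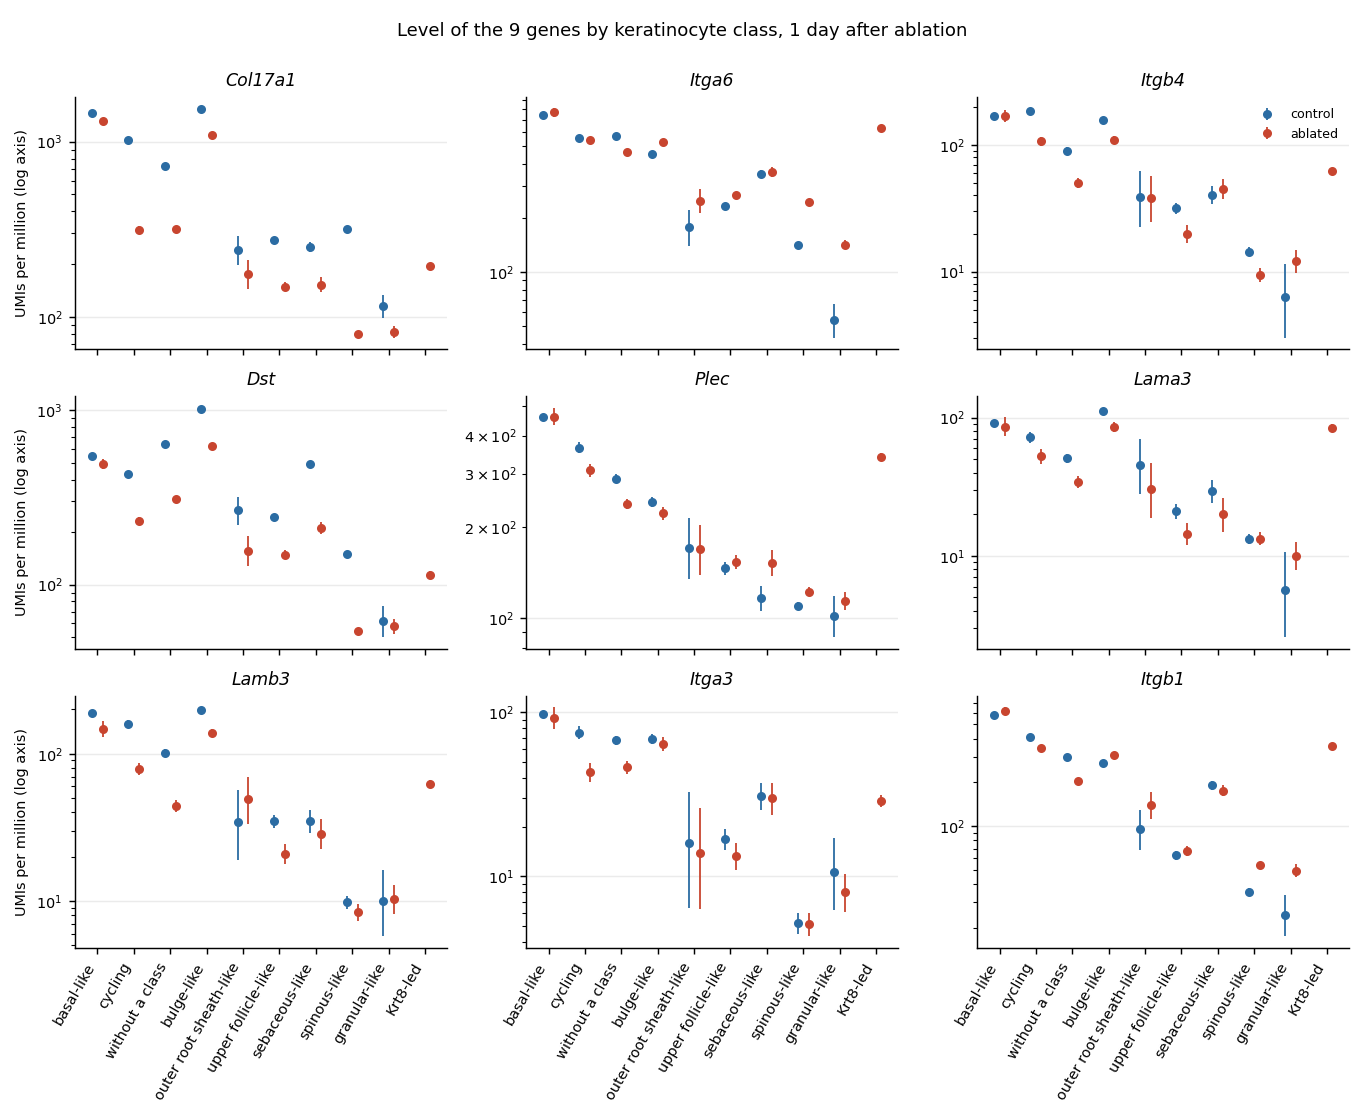
Level of each gene in CPM (log axis) by keratinocyte class 1 day after ablation, control in blue and ablated in red, with exact Poisson 95% intervals. In basal-like cells the points of the 2 libraries lie close together, for example 1452 and 1317 for Col17a1, while in spinous-like cells they lie at 315.9 and 79.77. Of the 5351 ablated spinous-like cells 4404 come from cluster 2, which has 4 control cells. Within spinous-like cluster 3 Col17a1 was higher in ablated cells, a log2 ratio of 0.70.

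Summed over all keratinocytes outside the clusters led by Krt8 and Krt18, the genes were lower after ablation at both times. At 1 day 7 of 9 were lower by at least 1.5-fold, against 7.44% of the 13286 genes with at least 50 UMIs; the others were Itga6 and Plec. At 1 week 9 of 9 were lower by that fold, against 10.3% of 12787 genes. None was higher by 1.5-fold at either time, against 11.1% and 20.5% of genes. At a fold of 2, Col17a1, Dst, Lamb3 and Itgb4 were lower at 1 day and Col17a1, Dst, Lamb3 and Lama3 at 1 week, 4 of 9 each against 2.4% and 4.65%. The median log2 ratio of the 9 was −0.90 at 1 day and −0.87 at 1 week, beside −0.01 and 0.12 for all genes. The clusters led by Krt8 and Krt18 left out of these sums held 5 control and 4473 ablated cells at 1 day. With them counted, 5 of 9 genes at 1 day and 8 of 9 at 1 week were lower by 1.5-fold, against 8.72% and 10.4% of genes. Spinous-like cluster 2, with 4 control and 4404 ablated cells at 1 day, was kept in. Cells of the classes entered the 2 libraries in different numbers, and in such sums fewer cells of a type and less RNA per cell cannot be told apart. The classes are therefore taken one by one below. Markers of other cell types were present in the keratinocyte sums. The 8 fibroblast markers, none of them at 0, summed to 59.1 and 57.0 CPM in the 1-day pair, and to 76.0 and 95.8 CPM in the 1-week pair. The 8 T cell markers summed to 24.2 and 11.2 CPM, then to 35.6 and 19.4 CPM, and the 7 Langerhans or dendritic cell markers to 152.9 and 191.1 CPM and to 104.3 and 135.5 CPM; their part in the ratios was not tested.

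Col17a1, the transmembrane collagen XVII, had the largest fall of the list in these sums. It stood at 758.5 CPM in control and 272.7 CPM in ablated keratinocytes at 1 day, and at 924.2 and 313.2 CPM at 1 week. The log2 ratios were −1.48 (95% interval −1.50 to −1.45) and −1.56 (−1.59 to −1.53). In control libraries its level was highest in bulge-like cells of the hair follicle (1523 CPM at 1 day) and in basal-like cells (1452 CPM), with cycling keratinocytes (1016 CPM) and keratinocytes without a class (722.5 CPM) next. Spinous-like (315.9), upper hair follicle-like (275.3), sebaceous-like (251.2) and outer root sheath-like cells (241.2) followed, and granular-like cells came last at 115.5 CPM. At 1 week basal-like (1635 CPM) and bulge-like cells (1622 CPM) had intervals that overlapped.

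Within classes the Col17a1 fall was uneven. In basal-like cells at 1 day, 4872 in control and 556 in ablated, the levels of 1452 and 1317 CPM differ by −0.14 on the log2 scale (−0.20 to −0.08). In cycling keratinocytes 1016 CPM fell to 313.2 CPM, a log2 ratio of −1.70. This class joins cluster 12 (661 and 573 cells), with a ratio of −2.10, and cluster 21 (200 and 409 cells), with −0.77. In bulge-like cells 1523 and 1087 CPM gave −0.49, and in upper hair follicle-like cells 275.3 and 149.3 CPM gave −0.88. The upper hair follicle-like class at 1 day joins clusters 7, 9 and 15. Cluster 7 (1075 of 2564 control and 1169 of 2247 ablated cells) is led by Cnfn, Flg, Ivl, Crct1 and Cdsn, genes of the outer epidermal layers, as well as by Krt79 and Cst6 of the upper follicle. Col17a1 in cluster 7 was at 121.6 and 79.2 CPM, in cluster 9 at 175.0 and 99.0 CPM and in cluster 15 at 716.8 and 401.7 CPM, ratios of −0.62, −0.82 and −0.84. At 1 week the ratio was −0.39 in bulge-like, −1.67 in upper hair follicle-like, −1.92 in cycling and −3.20 in sebaceous-like cells, where the ablated value rests on 22 UMIs. All 9 classes with 50 cells in both libraries at 1 day and all 6 at 1 week had a ratio below 0, and 5 at each time passed 1.5-fold.

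Itga6, the α6 chain of the hemidesmosomal integrin, behaved differently from Col17a1. Its sum was 391.5 CPM in control and 336.1 CPM in ablated keratinocytes at 1 day, a log2 ratio of −0.22 (−0.24 to −0.20), and 471.4 and 257.8 CPM at 1 week, a ratio of −0.87 (−0.91 to −0.83). In control cells at 1 day it was highest in basal-like cells at 750.0 CPM, then at 572.0 CPM in keratinocytes without a class and 554.3 CPM in cycling cells, whose intervals overlap, then at 455.5 CPM in bulge-like and 350.9 CPM in sebaceous-like cells. Upper hair follicle-like cells had 232.2, outer root sheath-like cells 177.5, spinous-like cells 142.3 and granular-like cells 54.0 CPM. No class fell by 1.5-fold at 1 day. Basal-like cells held 750.0 and 770.7 CPM, a ratio of 0.04 (−0.04 to 0.12).

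In spinous-like and granular-like cells Itga6 was higher in the ablated library at 1 day. Spinous-like cells had 142.3 CPM in control and 245.7 CPM in ablated, a log2 ratio of 0.79 (0.74 to 0.84). Granular-like cells had 54.0 and 142.3 CPM, a ratio of 1.40 (1.08 to 1.73), and cluster 13, which holds 158 of the 171 control and 1042 of the 1358 ablated ones, had 45.5 and 120.8 CPM, a ratio of 1.41. Immune cells of the same libraries, T cell-like and Langerhans or dendritic cell-like summed together, held 137.6 and 243.8 CPM. These were 0.73 and 1.01 times those expected from barcodes with few UMIs. The largest T cell-like cluster had 505 control and 288 ablated cells, and the largest Langerhans or dendritic cell-like cluster 378 and 440. The part of free RNA in the spinous-like and granular-like values was not tested. At 1 week spinous-like cells went the other way, with 190.2 and 118.4 CPM and a ratio of −0.68. The control spinous-like cells come mostly from clusters 3 and 8 at 1 day (3747 and 1056 of 4807 cells), and the ablated ones from cluster 2 (4404 of 5351), led by Sprr2d and Slpi. Cluster 8, with 1056 and 598 cells, had 43.1 and 102.9 CPM, a ratio of 1.26.

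Itgb4, the β4 chain that pairs with α6 alone, was lower in the sums by more than its partner at 1 day. It stood at 83.7 and 39.5 CPM at 1 day and at 212.6 and 123.9 CPM at 1 week, log2 ratios of −1.08 (−1.15 to −1.02) and −0.78 (−0.83 to −0.72). Control cycling (183.9 CPM), basal-like (170.5) and bulge-like cells (158.7) had the highest levels at 1 day, with neighbours whose intervals overlap. Keratinocytes without a class had 90.3 CPM, sebaceous-like cells 40.6, outer root sheath-like cells 38.7 and upper hair follicle-like cells 31.6 CPM, and spinous-like (14.4) and granular-like cells (6.28) were lowest. In basal-like cells at 1 day 170.5 and 169.1 CPM give a ratio of −0.01 (−0.18 to 0.15). Cycling cells had −0.78 at both times, from 183.9 to 107.2 CPM and from 326.5 to 190.0 CPM.

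Dst encodes the plakin BPAG1, whose epithelial isoform joins hemidesmosomes to keratin; its other isoforms are not separated in these counts. It stood at 419.0 and 187.8 CPM at 1 day and at 855.7 and 311.2 CPM at 1 week, log2 ratios of −1.16 (−1.19 to −1.13) and −1.46 (−1.49 to −1.43). Bulge-like control cells had the highest level at 1 day, 1018 CPM, followed by keratinocytes without a class (637.5), basal-like (548.5), sebaceous-like (490.4) and cycling cells (433.2). Outer root sheath-like (266.3) and upper hair follicle-like cells (242.8) came next, before spinous-like (148.9) and granular-like cells (61.5 CPM).

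Among the classes Dst was the gene most often past the fold. It was lower by at least 1.5-fold in 7 of 9 classes at 1 day and in 5 of 6 at 1 week, and below 0 in all of them. Bulge-like cells had 1018 and 622.1 CPM at 1 day, a ratio of −0.71, and 1268 and 910.7 CPM at 1 week, a ratio of −0.48. Sebaceous-like cells had 490.4 and 211.7 CPM at 1 day, a ratio of −1.21. That class joins cluster 18 (466 of 591 control and 288 of 557 ablated cells), cluster 25 (36 and 208) and cluster 28 (89 and 61). Within cluster 18 Dst was at 601.4 and 261.1 CPM, a ratio of −1.20, and within cluster 28 at 150.0 and 108.9 CPM, a ratio of −0.46 (−0.96 to 0.02). The basal-like cells of 1 day had 548.5 and 493.4 CPM, a ratio of −0.15 (−0.25 to −0.06). Cycling keratinocytes at 1 week fell from 834.7 to 263.1 CPM, a ratio of −1.67.

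Plec, the plakin plectin, which also serves other adhesion sites and most other cell types, had the smaller ratios of the pair. It stood at 236.9 and 175.4 CPM at 1 day and at 608.1 and 395.9 CPM at 1 week, ratios of −0.43 (−0.46 to −0.40) and −0.62 (−0.65 to −0.59). Control levels at 1 day ran from 461.6 CPM in basal-like cells and 365.5 in cycling cells to 110.1 in spinous-like and 101.7 CPM in granular-like cells, the last 2 with overlapping intervals. No class passed 1.5-fold at 1 day, with ratios between −0.28 and 0.39. At 1 week 1 of 6 did, the sebaceous-like cells, from 233.2 to 112.0 CPM. Basal-like cells at 1 day had 461.6 and 462.6 CPM, and bulge-like cells 241.1 and 221.7 CPM.

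Lama3 and Lamb3 encode the α3 and β3 chains of laminin-332, which keratinocytes secrete into the basement membrane. Lama3 (chr18:12333819-12583013, plus strand of GRCm38) stood at 49.2 and 28.3 CPM at 1 day and at 86.9 and 42.2 CPM at 1 week, log2 ratios of −0.79 (−0.87 to −0.72) and −1.04 (−1.14 to −0.95). Lamb3 stood at 90.5 and 37.7 CPM and at 127.2 and 56.5 CPM, ratios of −1.26 (−1.33 to −1.20) and −1.17 (−1.25 to −1.09). Both were lower in the ablated library at both times. Their control order at 1 day was alike. Lama3 was highest in bulge-like cells (111.7 CPM), then basal-like (91.5) and cycling cells (72.4), with spinous-like (13.3) and granular-like cells (5.65 CPM) last. Lamb3 had 199.1 CPM in bulge-like and 190.5 CPM in basal-like cells, with overlapping intervals, 159.4 in cycling cells, and 10.0 and 9.79 CPM in granular-like and spinous-like cells.

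Among classes with at least 50 UMIs of the gene, Lamb3 was lower by 1.5-fold in 3 at 1 day and 3 at 1 week, and Lama3 in 0 and 2. Keratinocytes without a class had 101.5 and 43.9 CPM of Lamb3 at 1 day, a ratio of −1.21 (−1.37 to −1.05), and 50.7 and 34.3 CPM of Lama3, a ratio of −0.56. The class without a name differs in make-up: cluster 4 holds 2180 of its 2330 control cells but 1268 of its 2066 ablated cells, with 595 more in cluster 19, led by Krt6b, and 203 in cluster 27, which has no control cell. Within cluster 4 Lamb3 was at 108.5 and 65.3 CPM, a ratio of −0.73, with Col17a1 at −0.62 and Dst at −0.47. Bulge-like cells had 199.1 and 139.2 CPM of Lamb3 at 1 day, a ratio of −0.52, and at 1 week 229.7 and 185.0 CPM, a ratio of −0.31. Lama3 in bulge-like cells at 1 week was 120.7 and 119.2 CPM. That class joins cluster 4 (744 control and 676 ablated cells) and cluster 23 (181 and 143). Within cluster 23 the ratios were 0.79 for Lama3, 0.13 for Lamb3, 0.09 for Col17a1 and −0.08 for Dst. Lamb3 had the basal-like ratio farthest from 0 among the 9 genes at 1 day, with 190.5 and 147.0 CPM and −0.37 (−0.56 to −0.20).

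Itga3 and Itgb1, the chains of the laminin receptor α3β1, were lower in the sums, with smaller ratios within most classes. Itga3 stood at 44.8 and 24.0 CPM at 1 day and at 84.4 and 53.1 CPM at 1 week, log2 ratios of −0.90 (−0.98 to −0.82) and −0.67 (−0.75 to −0.58). Itgb1, which also pairs with many other α chains, stood at 234.9 and 142.4 CPM and at 214.2 and 131.9 CPM, ratios of −0.72 (−0.75 to −0.69) and −0.70 (−0.75 to −0.65). Basal-like control cells had the highest levels at 1 day, 97.9 CPM of Itga3 and 581.7 CPM of Itgb1. Spinous-like cells had 5.17 CPM of Itga3, the lowest of the 9 classes, and granular-like cells 24.5 CPM of Itgb1.

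For Itga3 1 of 9 classes passed the fold at 1 day, the cycling cells, from 75.2 to 43.0 CPM. At 1 week it was higher in ablated bulge-like cells, 80.1 and 121.7 CPM, a ratio of 0.60 (0.40 to 0.81). It was also higher in upper hair follicle-like cells, where 2.16 and 9.48 CPM rest on 7 and 47 UMIs. Itgb1 did not fall by 1.5-fold in any class at 1 day. It was 581.7 and 622.1 CPM in basal-like cells, a ratio of 0.10 (0.01 to 0.18), and 270.8 and 306.0 CPM in bulge-like cells, a ratio of 0.18. In spinous-like cells it had 35.4 and 53.9 CPM, a ratio of 0.61, and in granular-like cells 24.5 and 49.4 CPM, a ratio of 1.01. At 1 week spinous-like cells had 34.4 and 19.9 CPM, a ratio of −0.79.

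**Figure D2:**
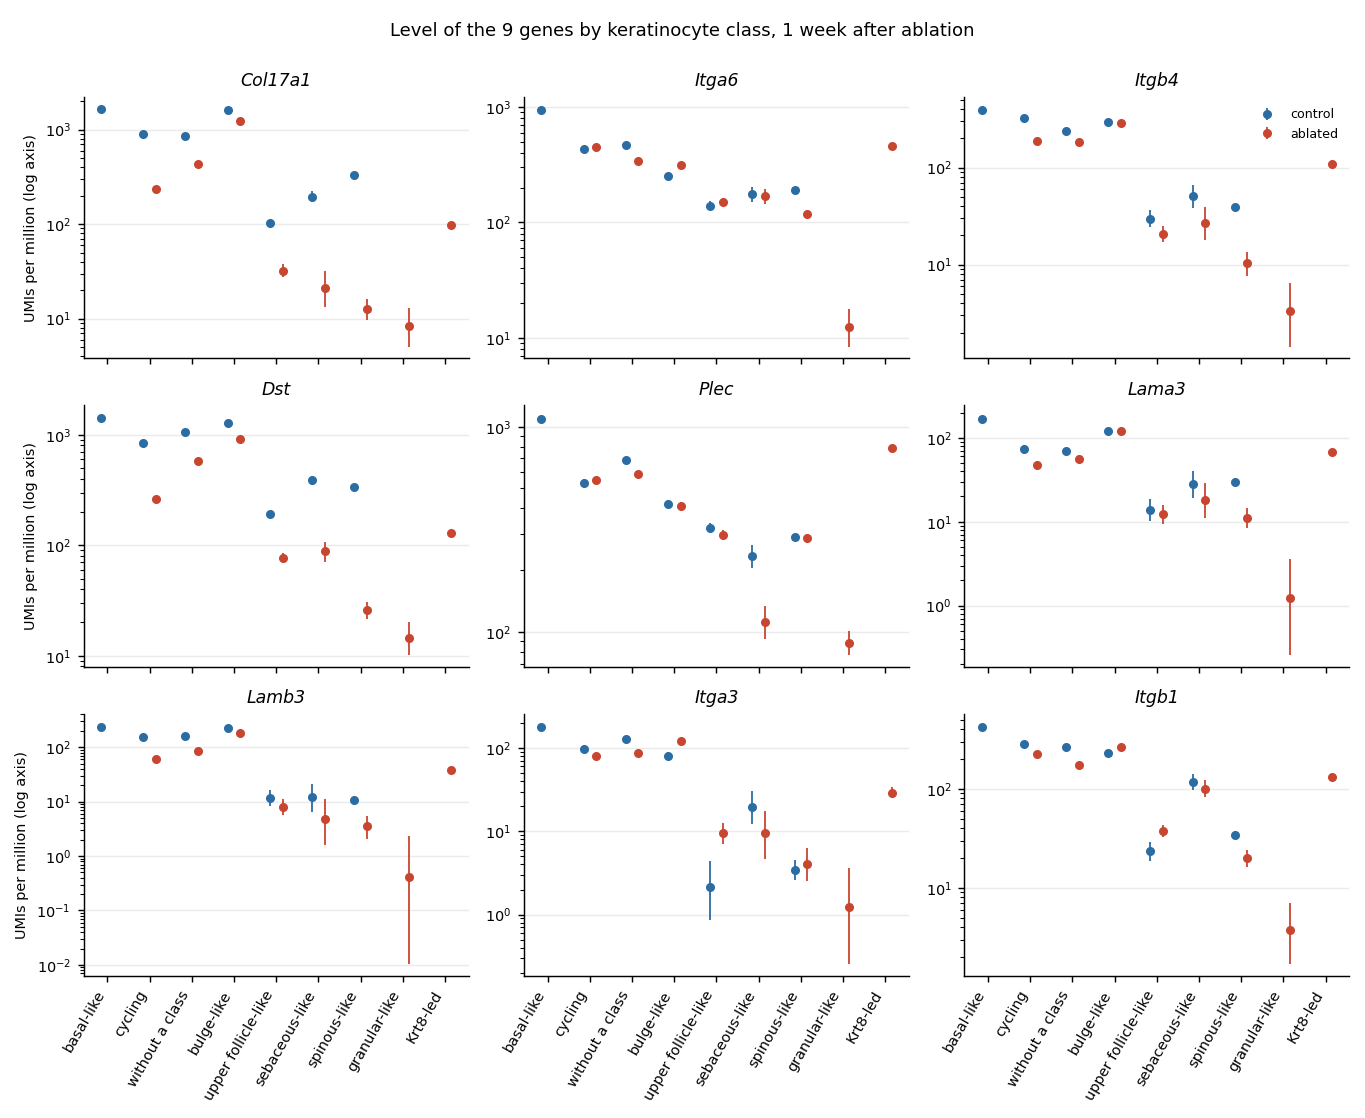
Level of each gene in CPM (log axis) by keratinocyte class 1 week after ablation, control in blue and ablated in red, with exact Poisson 95% intervals; only classes of at least 50 cells in the library are drawn, so basal-like cells appear for control alone. Krt8-led and granular-like cells appear for ablated alone. Col17a1 and Dst lie lower in the ablated library in every class drawn for both, and Plec lies at 288.8 and 286.1 in spinous-like cells.

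The basal-like class held 0 of 9 genes lower by 1.5-fold at 1 day, where 9.66% of 9386 genes were. The 8 ratios other than that of Lamb3 lay between −0.15 and 0.10. Trp63 in the same cells was 598.3 and 384.0 CPM, a ratio of −0.64, less than in the keratinocyte sum. At 1 week only 17 ablated cells were basal-like, beside 2030 in control. There 1 of 9 genes was lower, Lamb3 with 238.1 and 144.8 CPM from 22 ablated UMIs, against 26.6% of all genes, and Itgb4 was higher with 392.9 and 678.0 CPM, against 23.6% of genes. In the same cells the fibroblast markers summed to 83.9 and 210.7 CPM and the T cell markers to 68.5 and 151.4 CPM, with 7 of 8 of each list at 0 in the ablated cells; their part in these ratios was not tested.

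Counts by class, read beside the background share of all genes, were as follows. In bulge-like cells 1 of 9 was lower at 1 day, Dst, against 2.60% of genes, and 0 of 9 at 1 week against 9%. In all hair follicle-like cells together 4 of 9 were lower at 1 day and 3 at 1 week, against 3.14% and 10%. In upper hair follicle-like cells Col17a1, Dst, Itgb4 and Lamb3 were lower at 1 day, 4 of 9 against 3.82%, and Col17a1 and Dst at 1 week, 2 of 9 against 5.31%. In cycling keratinocytes 5 of 9 were lower at both times, against 5.60% and 14.2%; Col17a1, Dst, Itgb4 and Lamb3 were among them at both, with Itga3 at 1 day and Lama3 at 1 week. In keratinocytes without a class 4 of 9 were lower at both times, against 7.58% and 6.44%; at 1 week this class joins cluster 5 (775 and 481 cells) with cluster 90 (0 and 79 cells, led by Krt6b), and within cluster 5 Col17a1 (−0.86), Lamb3 (−0.77) and Dst (−0.76) passed the fold while Itgb1 (−0.49) did not. In sebaceous-like cells 2 of 9 were lower at 1 day against 5.03%, and 4 of the 6 with 50 UMIs at 1 week against 11.7%. In spinous-like cells 3 of 9 were lower at 1 day against 13.0%, and 7 at 1 week against 26.8%. In outer root sheath-like cells Dst was the 1 gene lower of 5 with 50 UMIs at 1 day, against 5.66%, and in granular-like cells 0 of 9 was, against 11.5%. Genes higher by the same fold were Itga6 and Itgb1 in spinous-like cells at 1 day, against 14.1% of genes, and Itga6, Itgb1, Itgb4 and Lama3 in granular-like cells at 1 day, against 17.3%. At 1 week they were Itga3 in bulge-like cells, against 8.70%, and Itga3 and Itgb1 in upper hair follicle-like cells, against 14.1%. The granular-like control levels of Itgb4 and Lama3 at 1 day were low, 6.28 and 5.65 CPM, from 171 cells. These 2 genes there, and Itga3 in upper hair follicle-like cells at 1 week, reached 50 UMIs mainly through the ablated library. That minimum favours a call of higher in such cases, so these calls are not read as a rise.

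**Figure D3:**
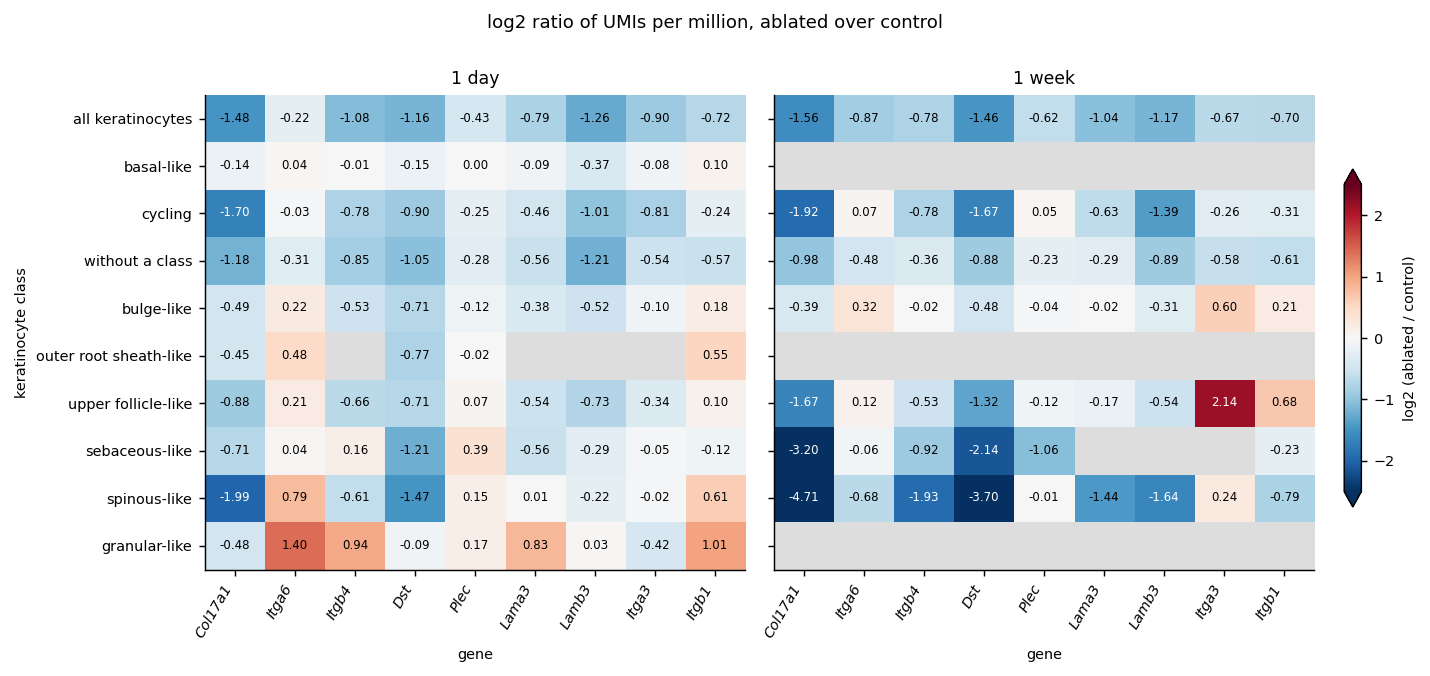
Log2 ratio of CPM, ablated over control, for each gene (columns) in each keratinocyte class (rows) at 1 day (left) and 1 week (right). Grey marks genes under 50 UMIs and classes under 50 cells. The Col17a1 and Dst columns are below 0 throughout, from −0.14 and −0.09 at the weakest at 1 day, while Itga6 and Itgb1 reach 1.40 and 1.01 in granular-like cells at 1 day.

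The spinous-like values need their clusters beside them. At 1 week the control cells are mainly clusters 12 and 22 (815 and 328 of 1220) and the ablated cells cluster 35 (217 of 224), led by Krt6b. The log2 ratios there were −4.71 for Col17a1, from 331.5 to 12.7 CPM, and −3.70 for Dst, from 337.5 to 25.9 CPM, while Plec had 288.8 and 286.1 CPM. At 1 day cluster 3 holds most control spinous-like cells and 349 ablated ones. It was the exception among the 18 clusters for Col17a1, whose ratio was below 0 in 17 of them. Other genes had no such common direction, with Itga6 below 0 in 1 of the 18, Itgb1 in 7 and Plec in 9. In cluster 3 Col17a1 was higher in ablated cells, 448.9 and 727.8 CPM, as was Lamb3 with 12.0 and 40.4 CPM, and Trp63 was 355.9 and 380.2 CPM. Itgb1 (log2 ratio 2.02), Lamb3 (1.75), Itgb4 (1.46), Lama3 (0.94), Itga3 (0.88), Col17a1 (0.70), Dst (0.38) and Plec (0.36) had their highest ratio of the 18 clusters there. Itga6 had its highest in cluster 13.

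Single clusters with at least 50 cells in both libraries compare cells of like profile, 18 at 1 day and 6 at 1 week. Col17a1 was lower by 1.5-fold in 10 of 18 and 4 of 6 clusters, and Dst in 7 of 18 and 5 of 6. Over all genes, the share lower in such a cluster ran from 2.34 to 11% at 1 day and from 5.31 to 14.2% at 1 week, and the share higher from 4.5 to 21.2% and from 8.85 to 18.7%. Lamb3 was lower in 7 of the 16 clusters where it reached 50 UMIs at 1 day and in 2 of 5 at 1 week, with 1 and 0 higher. Itgb4 was lower in 4 of 16 and 2 of 6, and higher in 3 and 0. Lama3 was lower in 2 of 16 and 1 of 5 and higher in 1 at each time, and Itga3 was lower in 4 of 16 and 0 of 5 and higher in 1 and 2. Of the latter, upper hair follicle-like cluster 7 reached 50 Itga3 UMIs mainly through its ablated cells. Itga6 was lower by that fold in 0 of 18 and 0 of 6 and higher in 4 of 18 and 0 of 6, and Plec was lower in 0 of 18 and 1 of 6 and higher in none. Itgb1 was lower in 1 of 18 and 0 of 6 and higher in 4 of 18 and 1 of 6. The extreme for Col17a1 at 1 day was cluster 12 of cycling cells, 1134.5 and 265.4 CPM, where Trp63 was 419.7 and 59.8 CPM. In that cluster Itga6 was 596.6 and 617.6 CPM.

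Weighting each class as in the control library gives the ablated level with the control shares of the classes. Clusters inside a class stay as captured, such as spinous-like cluster 2, with 4 control and 4404 ablated cells at 1 day. With those weights Col17a1 had a log2 ratio of −0.62 at 1 day and −0.58 at 1 week, Dst −0.68 and −0.69, and Lamb3 −0.56 and −0.73. Itga6 had 0.14 and −0.38, Itgb1 0.02 and −0.19, and Plec −0.03 and −0.18. For Lama3 the values were −0.25 and −0.23, for Itga3 −0.23 and −0.06 and for Itgb4 −0.34 and 0.37. So weighted, 2 of 9 genes were lower by 1.5-fold at each time, Col17a1 and Dst at 1 day and Dst and Lamb3 at 1 week, against 5.97% and 16.5% of all genes under the same weights. The 1-week weights put the largest class on the 17 ablated basal-like cells. Summing instead the clusters with at least 50 cells in both libraries, Col17a1, Dst and Lamb3 were the 3 of 9 lower at each time, against 4% and 8.58% of all genes in those cells. Without basal-like and cycling cells 4 of 9 were lower at 1 day, the same 3 and Itgb4, against 7.97%, and 2 of 9 at 1 week, Col17a1 and Dst, against 9.21%.

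**Figure D4:**
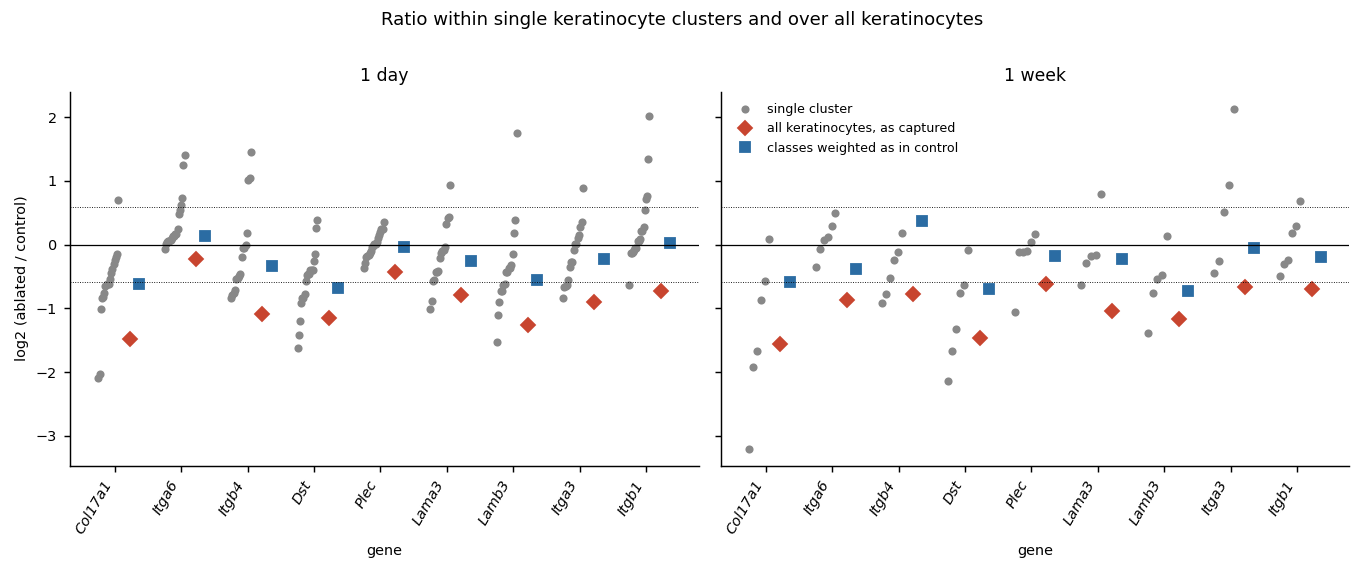
Log2 ratio, ablated over control, of each gene in single keratinocyte clusters (grey points), over all keratinocytes as captured (red diamonds) and with classes weighted as in control (blue squares), at 1 day and 1 week; dotted lines mark 1.5-fold. The red diamonds lie below the blue squares for each gene at both times, for example −1.48 and −0.62 for Col17a1 at 1 day.

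Clusters led by Krt8 and Krt18 held 4473 ablated and 5 control cells at 1 day and 446 and 1 at 1 week, so these cells have no control level of their own and were kept out of the sums above. Their levels are set beside ablated spinous-like cells. Itga6 stood at 634.7 CPM there at 1 day against 245.7 CPM, Itgb1 at 353.2 against 53.9, Plec at 340.4 against 122.5 and Lama3 at 84.7 against 13.4 CPM. Col17a1 was at 195.6 CPM and Dst at 113.9 CPM, 2.45-fold and 2.12-fold the spinous-like level. Ablated basal-like cells had 86.2 CPM of Lama3 and 1317 CPM of Col17a1. They also had more Itga6 (771 CPM), Itgb1 (622 CPM) and Plec (463 CPM) than the Krt8-led cells, and Dst at 9.17-fold the spinous-like level. The Krt8-led cells were thus above ablated spinous-like but not above ablated basal-like cells for these 6 genes at 1 day. At 1 week Plec was at 790.9, Itga6 at 463.1, Itgb1 at 132.2, Dst at 128.2, Itgb4 at 108.3 and Col17a1 at 97.8 CPM. Trp63 in these cells was 58.8 and 43.5 CPM. With them counted as keratinocytes, 5 genes at 1 day and 8 at 1 week were lower by 1.5-fold, against 8.72% and 10.4% of all genes.

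Shares of cells with a UMI moved the same way as the levels. After thinning each cell to 1000 UMIs, Col17a1 was detected in 50.9% of control and 22.1% of ablated keratinocytes at 1 day and in 56.9% and 29.8% at 1 week; 461 and 181 control cells were too shallow. Unthinned, these were 80.8% and 41.5%, and 84.4% and 57.5%. Immune cells, which should lack Col17a1, had it in 13.6% and 10.9% of thinned cells at 1 day and in 4.72% and 3.86% at 1 week, at median depths of 1747.5, 2330, 2457 and 2501 UMIs. Itga6 fell from 31.5% to 27.1% of keratinocytes at 1 day, while its immune-cell share was 6.65% in control and 16.2% in ablated. Plec was found in 20.1% and 14.9% of keratinocytes and in 15.7% and 21% of immune cells, so in the ablated library the keratinocyte share lay below that of immune cells. Thinned keratinocytes with a UMI of none of the 9 genes made up 22.1% and 41.6% at 1 day and 14.5% and 33.2% at 1 week, beside 49.4% and 43.3%, and 50.4% and 43.0%, of immune cells. Among basal-like cells at 1 day the share with none was 2.52% in control and 2.16% in ablated.

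At 1 day antibody tags split part of each library, 54.7% of control and 6.90% of ablated cells, into 3 sets whose meaning the sources used here do not give. Col17a1 in keratinocytes ran from 557.3 to 742.3 CPM over the 3 control tags and from 185.7 to 336.7 CPM over the 3 ablated tags. Itgb4 ran from 65.3 to 91.1 and from 30.2 to 48.2 CPM, and Lamb3 from 65.4 to 93.6 and from 26.4 to 46.2 CPM. Lama3 ran from 38.8 to 54.7 and from 17.7 to 29.9 CPM, and Dst from 327.0 to 403.8 and from 149.0 to 325.2 CPM. Itga6 was 326.4 to 469.9 CPM in control and 331.3 to 477.2 CPM in ablated. Plec was 208.3 to 257.8 and 171.0 to 237.6 CPM, Itga3 33.9 to 49.1 and 22.9 to 40.1 CPM, and Itgb1 176.0 to 256.2 and 98.6 to 211.8 CPM. How many of all genes have separate ranges over these tags was not computed, so overlap of the ranges is not read as a result. Of 3657, 3728 and 3945 control keratinocytes with tags 1, 2 and 3, 694, 1273 and 1201 were basal-like. Of 358, 605 and 163 ablated ones, 0, 5 and 2 were. The part of this difference in the ranges was not tested. The tags are not replicates.

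In cells other than keratinocytes, levels were set beside those expected from a low-UMI profile, that of the barcodes with fewest UMIs, scaled to the type's Krt5 and Krt14. Those barcodes hold up to 1586 and 1732 UMIs at 1 day and up to 628 and 1148 at 1 week and may themselves be cells, so the profile stands in for free RNA only roughly and the expected level is no lower bound. In the control libraries Col17a1 lay below that level in all 5 types at 1 day, 0.51 times in T cell-like and 0.54 times in fibroblast-like cells, and in 5 of 9 types at 1 week. The others at 1 week were T cell-like (1.38 times, 224 cells), melanocyte-like (1.66, 38 cells), macrophage-like (2.30, 19 cells) and smooth muscle or pericyte-like cells (1.13, 32 cells). Plec and Itgb1 lay above it in fibroblast-like cells. Plec was at 603.7 CPM in control fibroblast-like cells at 1 day, 6.28 times the expected level, and at 605.6 CPM at 1 week. Itgb1 was at 312.4 CPM in fibroblast-like cells at 1 week, 6.11 times, and at 854.1 and 983.9 CPM in the 32 and 40 smooth muscle or pericyte-like cells, control and ablated. Itga6 was at 573.4 CPM in 54 endothelial-like cells of the 1-week control, 2.97 times, and at 309.4 CPM in 54 ablated ones, 6.39 times. In Schwann cell-like cells, 46 and 42 of them, Dst was at 909.3 and 951.8 CPM and Itgb4 at 233.6 and 300.6 CPM.

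**Figure D5:**
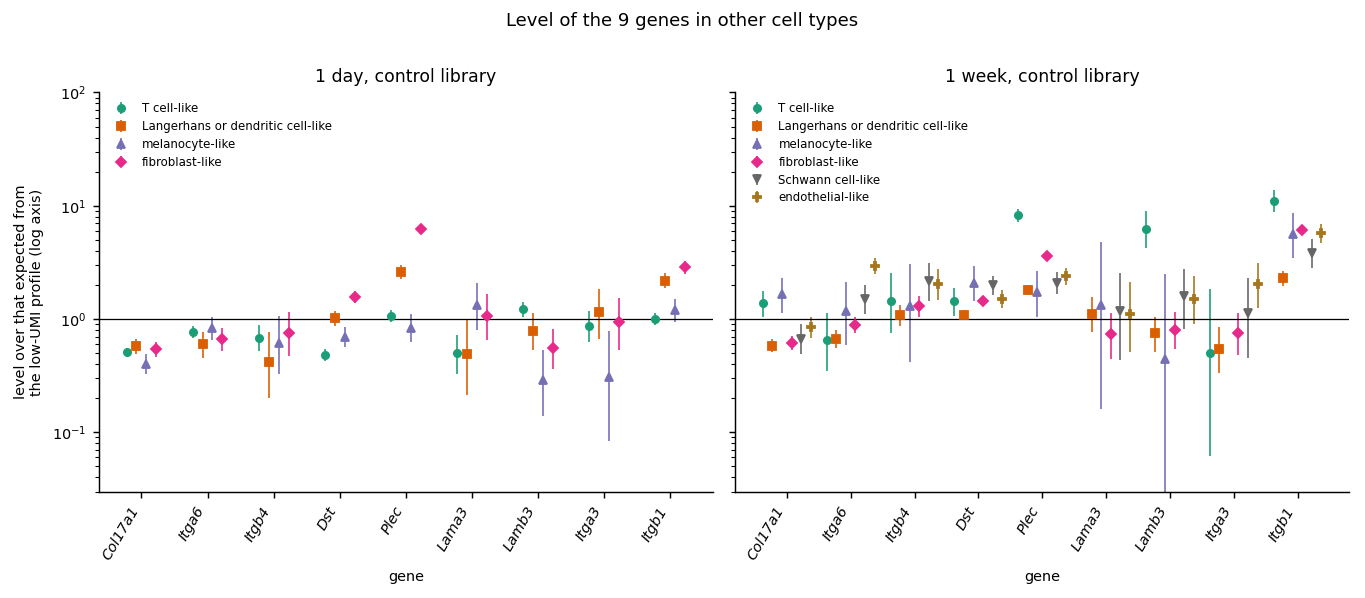
Level of each gene in other cell types of the control libraries, divided by the level expected from the profile of the barcodes with fewest UMIs (log axis), with exact 95% counting intervals; the line marks 1, and a gene with no UMI in a type is not drawn. Plec and Itgb1 lie above 1 in fibroblast-like cells at both times, at 6.28 and 2.86 at 1 day and at 3.63 and 6.11 at 1 week.

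Immune cells, summed over their types, are set out here by library, beside the same expected level. For other types, values by library are given in the text for picked genes only. In immune cells at 1 day Col17a1 was at 273.1 and 169.5 CPM, 0.52 and 0.65 times the expected level. Itga6 was at 137.6 and 243.8 CPM there, 0.73 and 1.01 times. At 1 week Col17a1 was at 230.3 and 101.6 CPM, 0.67 and 1.28 times, and Itga6 at 106.2 and 106.8 CPM, 0.67 and 1.70 times. In all cells together 5 of 9 genes were lower by 1.5-fold at 1 day and 7 of 9 at 1 week, against 9.92% and 10.2% of all genes.

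Other genes of the same contact are given from fixed lists, measured in keratinocytes. Col7a1, the collagen of anchoring fibrils, stood at 19.6 and 7.41 CPM and at 42.8 and 16.8 CPM, log2 ratios of −1.40 and −1.35. It was lower by 1.5-fold at both times. Fermt1, kindlin-1, an integrin activator, had −0.35 and −0.67, and Cd151, a tetraspanin partner of laminin-binding integrins, had 0.07 and 0.32. Of these 3, 1 was lower by 1.5-fold at 1 day and 2 at 1 week, against 7.44% and 10.3% of all genes.

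In the keratinocyte sums the wider lists held genes of both directions. The shares of all genes to set beside them are 7.44% lower and 11.1% higher at 1 day, and 10.3% lower and 20.5% higher at 1 week. Of 20 other basement membrane genes 17 had 50 UMIs at each time, and 5 were lower and 3 higher by 1.5-fold at both, with medians of −0.29 and −0.15. The lowest ratios at 1 day were those of Tinagl1 (−0.98), Frem2 (−0.91) and Lamb1 (−0.85), and at 1 week of Col4a6 (−1.30), Frem2 (−1.21) and Col4a1 (−0.86). The highest were Fras1 (1.00), Nid1 (0.74) and Npnt (0.63) at 1 day, and Nid1 (3.57), Tinagl1 (1.6) and Fbln1 (0.95) at 1 week. Nid1, nidogen-1, was at only 0.56 CPM in the 1-week control. The basement membrane list differed by class. In basal-like cells 6 were lower and 0 higher of 14 measured at 1 day, against 9.66% lower and 9.07% higher over all genes, and 8 were lower and 1 higher of 14 at 1 week, against 26.6% and 23.6%, on 17 ablated cells. In bulge-like cells 0 were lower and 1 higher of 16 at 1 day, against 2.6% and 5.22%, and 5 were lower and 0 higher of 15 at 1 week, against 9% and 8.7%. In all hair follicle-like cells 0 were lower and 1 higher of 16 at 1 day, against 3.14% and 4.69%, with a median of −0.04. At 1 week 10 were lower and 0 higher of 15 there, against 10% and 8.38%, with a median of −0.64. The fibroblast markers at 1 day summed to 56.0 and 25.9 CPM in control and ablated basal-like cells and to 368.6 and 485.6 CPM in bulge-like cells. At 1 week they summed to 83.9 and 210.7 CPM and to 474.6 and 586.0 CPM. Their part in the counts of this list was not tested.

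Of 15 other integrin chains 10 were measured at 1 day, 1 lower and 1 higher, and 8 at 1 week, 2 lower and 1 higher. Itga2, the collagen receptor chain α2, had the largest fall, 95.8 to 33.8 CPM at 1 day and 61.3 to 12.5 CPM at 1 week, ratios of −1.50 and −2.29; next were Itga1 (−0.30) and Itgb5 (−0.26) at 1 day, and Itgb5 (−0.79) and Itga4 (−0.39) at 1 week. Itgav, the αv chain of vitronectin receptors, was at 98.3 and 166.4 CPM at 1 day, a ratio of 0.76, above Itgae (0.47) and Itgb6 (0.39), and at 0.00 at 1 week, where Itgb8 (1.14) and Itga5 (0.52) were higher. Of 15 partners at focal adhesions 14 were measured. At 1 day 1 was lower, Flna (−0.80), and at 1 week again Flna (−0.77), while Parva (1.41), Actn1 (1.39) and Fermt2 (0.74) were higher. Flna is a cross-linker of actin. The remaining extremes were Ilk (−0.51), Pxn (−0.41), Actn1 (0.36), Parva (0.11) and Fermt2 (0.09) at 1 day and Cd9 (−0.53) and Zyx (−0.47) at 1 week.

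Across class profiles the 9 genes varied together to different degrees. The profiles were the log2(CPM + 1) levels of 13 classes in 2 libraries at 1 day and 10 classes at 1 week, 26 and 20 points that share libraries, depth and free RNA. Of the 1-day classes the 1-week set leaves out basal-like, granular-like and melanocyte-like cells, which had under 50 cells in 1 library or both, and outer root sheath-like cells, a name no 1-week cluster had; it adds endothelial-like cells, which were under 50 in both 1-day libraries. The values of the 2 times therefore rest on different classes. Against the mean of the other 8, Itgb4 had the highest Pearson r, 0.93 and 0.97, and Plec the lowest, 0.66 and 0.53. Outside the list the closest profiles at 1 day, among 9380 genes, included those of Palld (0.91), Bnc1 (0.91), Sfr1 (0.90), Mt2 (0.89), Slc12a4 (0.89), Cdh13 (0.89), Bcam (0.89), Kmt2a (0.88) and Itga2 (0.88). At 1 week, among 10782 genes, they were Ccdc3 (0.92), Met (0.89), Cdh13 (0.88), Ptn (0.88), Tgif1 (0.87), Kcnj15 (0.87), Snai2 (0.87), Atf3 (0.87), Gm26788 (0.86) and Trp53 (0.86). Cdh13 was among the 10 closest at both times. Trp63 ranked 408 with 0.68 at 1 day and 160 with 0.71 at 1 week.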

How the data were processed

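Suspended epidermal cells were profiled by droplet single-cell RNA sequencing, 1 library for each of 4 groups. The deposited values are UMI counts per gene and cell barcode, made by the authors with Cell Ranger 5.0.1, per the file headers; the submitters' processing notes name mm10, the build also called GRCm38. The 4 matrices hold only barcodes of at least 500, 1368, 500 and 1059 UMIs (control and ablated at 1 day, then at 1 week). Other steps before deposit are not given in the sources used here.

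Filters kept barcodes of at least 500 UMIs and 300 genes whose mitochondrial share was 15% or lower. Scrublet's automatic threshold marked 19.4%, 0.00314%, 0.0121% and 0.00546% of barcodes, so the highest scores were removed instead, 0.8% for each 1000 barcodes (8181, 8211, 4979 and 2699 barcodes). Clustering joined the control and ablated cells of each time point (scanpy 1.11.5, 2000 variable genes, 30 components, 15 neighbours, Leiden resolution 1) without the 9 genes, the related lists and Trp63. Clusters were named from marker lists of 24 classes. Rules made after seeing the clusters set mixed-marker clusters apart (123 and 2284 cells at 1 day, 1435 and 358 at 1 week). At 1 week these include clusters without markers of another cell type, such as cluster 11 (818 control and 5 ablated cells). Their profiles lay within a total variation of 0.15 of that of the 10% of barcodes with fewest UMIs. At 1 day clusters without such markers were not set apart by this limit. At 1 week the rules also set aside every cluster with a median under 3000 UMIs, whatever keratinocyte class it scored for. Kept were those named as another cell type whose profile lay at a total variation of 0.25 or more from the same low-UMI profile. Differences from the study may come from these rebuilt names.

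Counts were summed over the cells of a class and divided by the class total and scaled to 1000000 UMIs (CPM), with exact Poisson 95% intervals; log2 ratios carry exact conditional binomial intervals, checked on simulated counts. A gene was counted where both sums together held at least 50 UMIs, and called lower or higher at 1.5-fold. With 1 library a group no test was made. TMM factors (edgeR 4.0.16) were used only as an alternative scaling, and other alternatives are given in the closing section.

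All 9 genes are named, with the genes of the first related list; 1 gene of that list, which is also among the closest in pattern, is not reported here. Of each other list the 3 highest and 3 lowest ratios at each time are named, and the 10 genes closest in pattern with at least 20 CPM in a class. The genes, lists and several limits were chosen with earlier results of these data known. Coordinates come from GENCODE M21 on GRCm38, and start-site sequences from RefSeq on GRCm38.p6.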

Additional observations from a re-analysis of the deposited data

Results flagged for a closer look

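Itga6 and Itgb1 in spinous-like cells moved past 1.5-fold in opposite directions at the 2 time points. For Itga6 the log2 ratio of ablated over control was 0.79 at 1 day and −0.68 at 1 week. For Itgb1 it was 0.61 at 1 day and −0.79 at 1 week. The difference between time points was not tested: each rests on 1 library a group, the kits differ, and the class is held by different clusters in control and ablated libraries at both times.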

How the results depend on the processing

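No paired analysis was possible because each group has 1 library. Counts of genes lower by 1.5-fold depended on the cells summed. From 7 at 1 day and 9 at 1 week they went to 0 and 1 in basal-like cells, to 4 and 3 in hair follicle-like cells, to 3 and 3 in clusters with at least 50 cells in both libraries, to 4 and 2 without basal-like and cycling cells, to 2 and 2 with classes weighted as in control, and to 4 and 4 at a fold of 2. The median ratio at 1 day, −0.90, became −1.0 when totals left out mitochondrial and ribosomal protein genes, −1.01 with the mean CPM per cell, −0.079 in basal-like cells, −0.52 in hair follicle-like cells, −1.33 with the low-UMI profile subtracted, −0.42 in clusters with 50 cells in both, −0.52 without basal-like and cycling cells and −0.25 with class weights. In the same order the median at 1 week, −0.87, became −0.95, −0.74, −0.22, −0.30, −0.81, −0.35, −0.24 and −0.23; it was −1.01 with TMM factors, −0.81 with Krt8-led cells, −0.80 over all cells and −0.93 with low-UMI clusters counted. The causes were not tested beyond what each setting leaves out or weights.

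TMM factors moved the 1-week median of all genes from 0.12 to −0.02. The share of all genes lower went from 7.44% to 16.7% with the profile subtracted and 16.9% with no UMI minimum at 1 day, and from 10.3% to 14.2% with TMM and 19.6% with no minimum at 1 week. Among ratios past 1.5-fold, directions turned for Itgb1 at 1 day in basal-like cells (0.10), hair follicle-like cells (0.070) and with class weights (0.022). Below that fold at 1 day, Itga6 (−0.22) turned to 0.0044 with Krt8-led cells, 0.021 over all cells, 0.039 in basal-like cells, 0.16 in hair follicle-like cells, 0.14 without basal-like and cycling cells and 0.14 with class weights, and Plec (−0.43) to 0.0034 in basal-like cells. At 1 week directions turned for Itgb4 in basal-like cells (0.79) and with class weights (0.37), for Itga6 in hair follicle-like cells (0.14), for Itga3 in those cells (0.37) and without basal-like and cycling cells (0.30), and for Itgb1 without the latter (0.0095). Itgb1 in upper hair follicle-like cells at 1 week turned to −0.032 with the mean CPM per cell. Of 144 alternative values of single genes in keratinocytes at 1 day, 47 stayed within their counting interval, and of 153 at 1 week, 54 did. The alternatives over clusters of 50 cells, without basal-like and cycling cells, with class weights, with low-UMI clusters, with barcodes of at least 3000 UMIs and within single classes were chosen after seeing the data. Depth limits Lama3, Lamb3 and Itga3 most: in sebaceous-like cells at 1 week none of these reached 50 UMIs.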

Other observations

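In T cell-like cells of the 1-week control, 224 cells, Lamb3 was at 60.4 CPM from 30 UMIs, 6.26 times the level expected from the low-UMI profile, and in the 113 ablated cells at 27.7 CPM from 7 UMIs, 11.3 times (4.56 to 23.4); the intervals of the 2 CPM values overlap. Lama3, the chain that pairs with it in laminin-332, had 0 UMIs in the same control cells. At 1 day Lamb3 in T cell-like cells was at 122.9 CPM, 1.22 times the expected level.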
